A study of Xenopus laevis with 10 samples.

Results

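The unfed intestine of Xenopus laevis tadpoles was followed from 10 to 16 days post fertilization (dpf) in 5 RNA sequencing libraries, out of 10 in the whole series; the other 5 came from fed tadpoles of the same ages and served here for comparison. The members were taken by their titles: unfed tadpoles at 10 and 13 dpf in experiment 1, and unfed tadpoles at 10, 13 and 16 dpf in experiment 2, with 1 library each. Fed tadpoles were sampled at the same ages in the same experiments. No strain, genotype or sex is given for either feeding state, and all tadpoles were kept at 19 °C. Each library pooled 20 to 26 gut tubes, and collection is described for 10 and 16 dpf without naming 13 dpf. Nothing in the labels ties a library to a clutch, tank or extraction of its own, so the spread behind the p-values may be technical. No libraries share feeding state, age and experiment. That spread is therefore the departure of the libraries, fed ones included, from the fitted terms, and not a spread between replicates of a condition. In the stage field, as opposed to the title, the experiment 1 unfed library at 10 dpf is given as 13 dpf and the experiment 1 fed library at 13 dpf as 10 dpf; the headers of the count columns carry the ages of the titles. Within unfed tadpoles, age and time without food run together and cannot be told apart.

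As background, a Xenopus tadpole lives on yolk before it begins to eat, and its gut at this age is a long coiled tube of simple larval epithelium. Enterocytes of that epithelium carry a brush border of microvilli with digestive enzymes and transporters, and they export absorbed fat as lipoproteins. In vertebrates that stop eating, amino acids from body protein become a fuel, and enzymes that degrade single amino acids are known to respond to fasting. Xenopus laevis is allotetraploid, and the endings .L and .S name the gene copies on the long and short chromosome of a pair. Reads of such copies, and of globins and other families of near-identical genes, may have been split between them during counting, which makes the values of one copy uncertain.

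The gene total per unfed library ran from 6999194 to 9934456 counts, and 27210 to 27893 genes had at least 1 count. Levels are counts scaled to the TMM-adjusted library size (CPM). A count of 3 corresponds to 0.288 to 0.405 CPM in the unfed libraries, and values at or below this are near the floor; such limits cover counting error only. The first principal component of the unfed libraries held 58.8% of the variance and placed them, from low to high, in the order experiment 1 at 10 dpf (-71.97), experiment 1 at 13 dpf (-38.5), and experiment 2 at 10 (5.93), 13 (44.18) and 16 dpf (60.36). The component thus ran with age inside each experiment and also separated the experiments. Because the tissue was sequenced in bulk, fewer cells of a type and less RNA per cell cannot be told apart. Across the unfed libraries, enterocyte markers held 1.36% to 3.46% of gene counts, those of the exocrine pancreas 0.0633% to 0.316%, and those of the liver 0.213% to 0.624%.

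The first question was which genes followed a trend with age in unfed tadpoles once the difference between the experiments was taken out. Of 23821 genes tested, 57 passed an adjusted p of 0.05 (0.239%): 23 were higher with age (0.0966%) and 34 were lower (0.143%). Slopes ran from 0.26 to 0.78 log2 per day among the former (median 0.43) and from -1.01 to -0.23 among the latter (median -0.31). All 34 falling genes were lower at every one of the 3 steps, which are 10 to 13 dpf in experiment 1, 10 to 13 dpf in experiment 2 and 13 to 16 dpf in experiment 2. Of the 23 rising genes 22 were higher at every step, against 13.5% of all genes tested that were higher at all 3 and 12.7% that were lower. For tdh.L (3 counts at both ages) and mmp13l.S (6 at both) the experiment 1 step reflects the scaling of equal counts alone. The genes of this trend were chosen by the same libraries, so their steps describe them and test nothing. At 10 dpf experiment 2 already lay further along the direction of change than experiment 1 for 20 of the 23 rising and 27 of the 34 falling genes. No share over all genes stands beside these counts, and the first principal component also separated the experiments. The counts are therefore not read as particular to these genes. Adjusted p-values sat close to the threshold: the smallest was 0.00653, and no gene passed without the 10 dpf library of experiment 2, 15 without its 13 dpf library and 6 without its 16 dpf library.

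The rising genes included enzymes that break down amino acids. The gene sds.L, for serine dehydratase, which turns serine into pyruvate, was at 1.34 and 1.92 CPM at 10 and 13 dpf in experiment 1, and at 0.54, 6.11 and 18.5 CPM at 10, 13 and 16 dpf in experiment 2. The value at 16 dpf stood above all other unfed libraries and above the fed range of 0.121 to 1.0 CPM. Its slope was 0.63 ± 0.10 log2 per day (SE, adjusted p = 0.0385). Proline dehydrogenase (prodh.L) opens proline degradation in mitochondria. Its level went from 2.59 to 4.68 CPM in experiment 1 and through 2.97, 6.34 and 36 CPM in experiment 2. Both experiments began below the fed range of 4.64 to 10 CPM, and the library at 16 dpf ended above it. The slope was 0.57 ± 0.07 log2 per day (adjusted p = 0.0225). For tdh.L, the threonine dehydrogenase gene, values of 0.288 and 0.319 CPM in experiment 1 were at the counting floor, and the rise from 1.75 over 3.17 to 11.9 CPM was in experiment 2 (slope 0.47 ± 0.07 log2 per day, adjusted p = 0.0385). Aminoadipate-semialdehyde synthase (aass.L, named after its values were seen) starts lysine degradation; it rose from 8.74 to 21.6 CPM and from 13.4 over 21.5 to 40.1 CPM, with a fed range of 6.53 to 12.5 CPM (slope 0.30 ± 0.05 log2 per day, adjusted p = 0.0385). A gene of a later step of lysine degradation moved the other way: aadat.L, for an aminotransferase that also acts on kynurenine, fell from 34.2 to 18.8 CPM and from 22.1 over 7.92 to 5.11 CPM (slope -0.34 ± 0.06 log2 per day, adjusted p = 0.0385). A co-chaperone known in mammals for serving the aromatic amino acid hydroxylases, dnajc12.S, rose from 0.864 to 3.72 CPM and from 1.08 over 6.45 to 14 CPM, while fed libraries held 0.607 to 1.38 CPM (slope 0.58 ± 0.08 log2 per day, adjusted p = 0.0319).

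Genes of secreted proteases and of defence proteins rose as well. The gelatinase gene mmp9.2.L, whose product digests matrix, was at 0.288 and 1.7 CPM in experiment 1 and at 4.72, 8.83 and 24.9 CPM in experiment 2. Every fed library lay between 0.121 and 0.251 CPM, so that all unfed libraries were higher, the experiment 1 library at 10 dpf by very few counts. Its slope was 0.43 ± 0.06 log2 per day (adjusted p = 0.0357). The collagenase-like mmp13l.S stayed at 0.576 and 0.638 CPM in experiment 1 and went from 3.24 over 10.8 to 23 CPM in experiment 2 (slope 0.43 ± 0.07 log2 per day, adjusted p = 0.0388). Ficolin (fcn1.L), a lectin that starts complement on microbial sugars, rose from 2.02 to 3.51 CPM and from 3.37 over 10.8 to 19.2 CPM, against 1.81 to 3.81 CPM in fed tadpoles (slope 0.38 ± 0.07 log2 per day, adjusted p = 0.0408). Extracellular superoxide dismutase (sod3.S) was below the fed range of 2.58 to 3.54 CPM at 10 dpf in both experiments, with 0.864 and 1.35 CPM. It was above that range at 16 dpf with 10.2 CPM (slope 0.43 ± 0.08 log2 per day, adjusted p = 0.0403). Experiment 1 held 9 counts of sod3.S at 10 dpf and 10 at 13 dpf, so most of the rise was in experiment 2. A gene described as mucin-5B-like, named after its values were seen, went from 1.34 to 2.23 CPM and from 2.97 over 14.3 to 31.4 CPM (slope 0.50 ± 0.08 log2 per day, adjusted p = 0.0385).

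The steepest rise among genes with a symbol was that of gprc5a.L, for an orphan receptor first known as induced by retinoic acid. It was at 0.384 and 0.532 CPM in experiment 1 and at 1.08, 2.6 and 23.9 CPM in experiment 2, with fed libraries between 0.408 and 2.38 CPM. Most of that change fell between 13 and 16 dpf, in a single library (slope 0.77 ± 0.11 log2 per day, adjusted p = 0.0357). The decoy receptor gene tnfrsf6b.S, whose human product binds Fas ligand, had a slope of 0.42 ± 0.07 log2 per day and ended at 17.3 CPM. It rested on 6 and 9 counts in experiment 1 and on 19, 76 and 176 in experiment 2. The matching fed libraries held 40 and 30 counts and then 18, 16 and 5. The secreted olfactomedin olfm2.S also had a slope of 0.42 ± 0.07 and ended at 17.8 CPM. A gene that RefSeq names foxr1.L, and the deposited description names tetratricopeptide repeat protein 36, had a slope of 0.40 ± 0.07 log2 per day and ended at 23 CPM; all 3 had an adjusted p of 0.0385. Further rises, named after their values were seen, were gpnmb.L, a glycoprotein of macrophages and lysosomes (from 4.99 to 12 CPM, and from 8.23 over 17.3 to 31.2 CPM), and the antizyme inhibitor azin2.S of polyamine metabolism (from 7.87 to 11.9 CPM, and from 46 over 65.8 to 141.9 CPM).

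**Figure D1:**
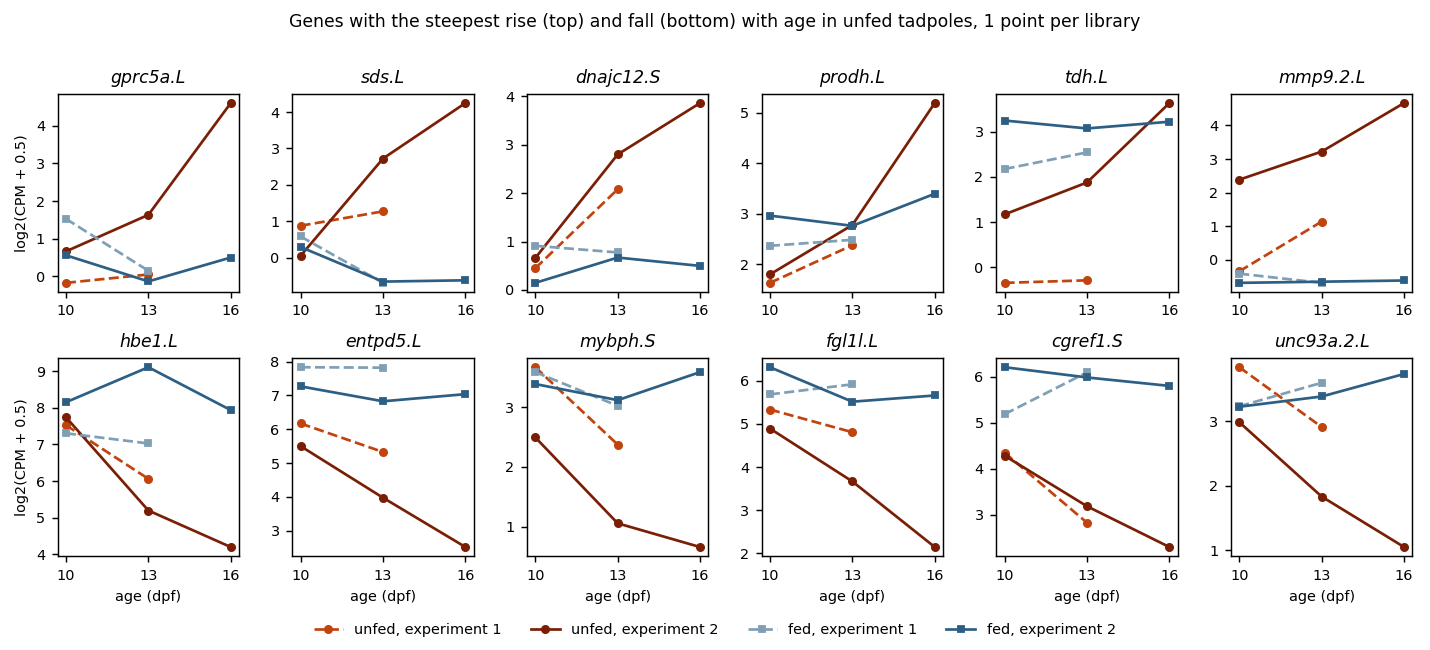
Level (log2 of CPM plus 0.5) against age in dpf for 6 rising and 6 falling genes, with 1 point per library and lines joining libraries of an experiment. Their unfed slopes were the highest and lowest among passing genes with a symbol, a mean of 2 CPM or more and the sign of the slope in both experiments. Unfed lines of both experiments run upward in the top row, except that tdh.L is nearly flat in experiment 1, with 3 counts at both ages. They run downward in the bottom row. At 16 dpf prodh.L reached 36 CPM and entpd5.L reached 5.21 CPM. The vertical scale differs between panels.

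The falling genes included several that serve fat and vitamin uptake by enterocytes. A gene described as Niemann-Pick C1-like protein 1, the sterol importer of the mammalian brush border, had the steepest slope and was named after its values were seen. Its level went from 36.6 to 3.3 CPM in experiment 1 and from 16.9 over 1.81 to 0.491 CPM in experiment 2. Every fed library held 75.4 to 188.7 CPM, so the groups did not overlap at any age (slope -1.01 ± 0.09 log2 per day, adjusted p = 0.00653). Cellular retinol-binding protein 2 (rbp2.S), which carries absorbed vitamin A in enterocytes, fell from 1168 to 499.4 CPM and from 484.1 over 290.1 to 113.4 CPM. The highest unfed library, at 10 dpf in experiment 1, lay inside the fed range of 889.6 to 1899 CPM and the other 4 lay below it (slope -0.36 ± 0.06 log2 per day, adjusted p = 0.0385). The fatty acid receptor and transporter cd36.L fell from 181.9 to 125.3 CPM and from 155.5 over 77.4 to 48.9 CPM; the last 2 of these were under the fed range of 116.8 to 270 CPM (slope -0.26 ± 0.04 log2 per day, adjusted p = 0.0385). A peptide transporter gene described as solute carrier family 15 member 1-like, named after its values were seen, fell from 27 to 14 CPM and from 18.9 over 7.7 to 5.7 CPM (slope -0.30 ± 0.05 log2 per day, adjusted p = 0.0357).

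The .L copies of both enzymes of creatine synthesis fell. The first, gatm.L, makes guanidinoacetate from arginine and glycine; it was at 83.5 and 32.1 CPM in experiment 1 and at 46.6, 23.7 and 13.8 CPM in experiment 2 (slope -0.33 ± 0.06 log2 per day, adjusted p = 0.0388). The second, gamt.L, methylates that product; it was at 112.5 and 34.4 CPM in experiment 1 and at 46.3, 28.4 and 14 CPM in experiment 2 (slope -0.35 ± 0.06 log2 per day, adjusted p = 0.0408). All unfed values of both genes were below the fed ranges, which were 121.3 to 226.3 CPM for gatm.L and 251.2 to 379.6 CPM for gamt.L. The nucleotidase entpd5.L, which acts in glycoprotein folding in the endoplasmic reticulum, fell from 71.5 to 39.6 CPM and from 44.7 over 15.2 to 5.21 CPM, with 113 to 227.8 CPM in fed tadpoles (slope -0.46 ± 0.05 log2 per day, adjusted p = 0.0120). The transporter slc30a10.S, known in mammals for exporting manganese, fell from 33.1 to 17.5 CPM and from 23.2 over 9.17 to 5.6 CPM (slope -0.34 ± 0.06 log2 per day, adjusted p = 0.0385). The other falling genes named by the rule were mybph.S, a myosin-binding protein, the secreted fgl1l.L, the EF-hand protein cgref1.S, the membrane protein unc93a.2.L and the reductase cyb5r2.S, with slopes of -0.42, -0.40, -0.39, -0.36 and -0.30 log2 per day in that order.

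The embryonic-type globin hbe1.L fell from 183.5 to 66.3 CPM and from 213.3 over 36.2 to 17.9 CPM (slope -0.58 ± 0.09 log2 per day, adjusted p = 0.0385). It overlapped the fed range of 129.8 to 549.9 CPM at 10 dpf in both experiments and was below it afterwards. Other red cell genes did not pass: hba2.L was at 216.1 and 143 CPM in experiment 1 and at 429.9, 163.7 and 35.3 CPM in experiment 2 (adjusted p = 0.0596), and alas2.S, the erythroid enzyme of haem synthesis, at 4.99 and 2.98 CPM and then 9.99, 5.43 and 2.36 CPM (adjusted p = 0.0769). Genes of blood vessels and red cells together held 0.391% and 0.305% of the counts in experiment 1 and 0.59%, 0.261% and 0.0896% in experiment 2. Their part in the fall of other genes was not tested, and the amount of blood left in the dissected tubes is not recorded in the labels.

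A trend seen in unfed tadpoles may also occur in fed ones, so the difference between the slopes was tested. In fed tadpoles no gene passed the trend test with edgeR; 562 genes were higher (2.36%) and 657 lower (2.76%) at an unadjusted p under 0.05. The difference of slopes passed for 2 genes, both lower in unfed (0.0084%), while 955 genes had a higher slope in unfed (4.01%) and 1121 a lower one (4.71%) at an unadjusted p under 0.05. One was the Niemann-Pick C1-like gene, with a difference of -1.17 ± 0.11 log2 per day (adjusted p = 0.00911). The other, LOC108709869, is described as a galactosyltransferase that extends O-linked sugars; it was at 12.5 and 7.66 CPM in experiment 1 and at 17.1, 4.98 and 2.16 CPM in experiment 2, and its difference was -0.64 ± 0.08 log2 per day (adjusted p = 0.0279). Neither passed in every fit that left out a library: no gene passed without the 10 dpf unfed or the 16 dpf fed library of experiment 2, and 12 and 11 passed without the 10 or the 13 dpf fed library of experiment 1. For the other 55 genes of the unfed trend a slope that differs from fed tadpoles was not shown. Over all 57 genes the fed slopes had a median of 0.02 log2 per day both for the rising and for the falling genes, with ranges of -0.60 to 0.41 and -0.09 to 0.20.

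**Figure D2:**
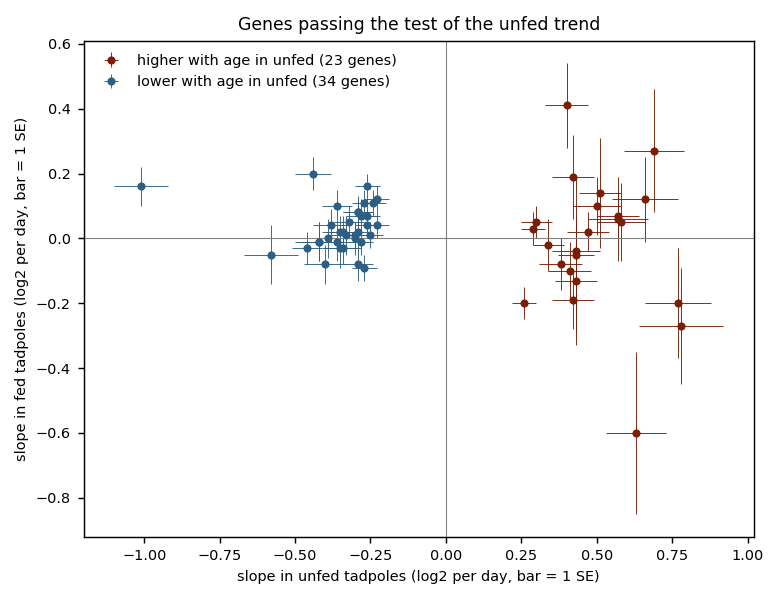
Slope with age in fed tadpoles against the slope in unfed tadpoles, both in log2 per day with bars of 1 SE, for the 57 genes passing the unfed trend test. The points spread from -1.01 to 0.78 across the unfed axis, where they were selected, and from -0.60 to 0.41 on the fed axis, with medians of 0.02.

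Gene lists gave a wider view of the same trend. Over all genes the median slope was 0.003 log2 per day, and 4.23% of genes were higher and 5.65% lower at an unadjusted p under 0.05. Leaving out the 16 dpf library shortens the ages to 10 and 13 dpf. The counts over all genes then went from 1008 higher and 1345 lower to 635 and 918. Without the 10 dpf library of experiment 1 they were 790 and 1017 of 23695 genes tested. Among 52 tested genes of the enterocyte brush border and its digestive enzymes 2 fell at an adjusted p under 0.05, rbp2.S among them, and none rose. At an unadjusted p under 0.05, 25 were lower and 0 higher, with a median slope of -0.137 log2 per day in unfed and 0.030 in fed tadpoles. Between 10 and 13 dpf 37 of the 52 were lower in both experiments and 1 was higher in both (all genes, 28.5% and 29.8%). The fatty acid carrier fabp2.L was at 2514 and 1581 CPM in experiment 1 and at 1780, 909.8 and 277.2 CPM in experiment 2 (adjusted p = 0.0515). The sodium-glucose transporter slc5a1.2.L was at 867.1 and 431.4 CPM, and then at 520.9, 193.3 and 168 CPM (adjusted p = 0.0617). Neither of these passed the threshold. Without the 10 dpf library of experiment 1, whose age the labels give in conflicting ways, 21 genes were lower and 0 higher at an unadjusted p under 0.05, and without the 16 dpf library 16 and 0; in both cases none passed after adjustment.

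Lipid handling followed. Of 56 tested genes of lipid absorption and lipoproteins 1 fell after adjustment, cd36.L, and 23 were lower and 2 higher at an unadjusted p under 0.05 (median slope -0.108 log2 per day, fed 0.024). The share of counts held by these genes was 4.93% and 4.59% in experiment 1 and 3.48%, 2.61% and 1.27% in experiment 2, with 4.5% to 5.53% in fed tadpoles. Without the 16 dpf library 12 genes of lipid absorption were lower and 1 higher at that threshold. The lipoprotein assembly factor mttp.1.S was at 259.9 and 154.3 CPM and then 177.9, 80.1 and 66.2 CPM (adjusted p = 0.0643), and the sterol-esterifying soat2.S at 62.8 and 36.8 CPM and then 30.4, 15.2 and 11.3 CPM (adjusted p = 0.0542). Of 38 genes of fatty acid oxidation and ketogenesis none passed; 13 were lower and 2 higher at an unadjusted p under 0.05, and 8 and 1 without the 16 dpf library. The mitochondrial carnitine carrier slc25a20.L was at 79.5 and 47.9 CPM and then 68.2, 45.7 and 35 CPM (adjusted p = 0.0923). The uncoupling protein gene ucp2.S was at 53.3 and 120.8 CPM and then 100.3, 127.3 and 282.2 CPM (slope 0.28 ± 0.07 log2 per day, adjusted p = 0.125). Fed tadpoles had a similar slope for it of 0.24 ± 0.07, with 47 and 38.4 CPM and then 48.2, 76.2 and 174.6 CPM. The difference of the slopes was 0.04 ± 0.09 log2 per day. Its other copy, ucp2.L, was at 101.4 and 125.0 CPM and then 125.3, 125.6 and 151.0 CPM (slope 0.06 ± 0.04 log2 per day, adjusted p = 0.758). In cholesterol synthesis 1 of 42 genes passed, and it rose: insig1.S, which holds back the sterol sensor in the endoplasmic reticulum. It went from 14.2 to 22.3 CPM and from 14.6 over 25.7 to 51.3 CPM (slope 0.29 ± 0.04 log2 per day, adjusted p = 0.0357). The other copy, insig1.L, was at 8.16 and 6.07 CPM and then 6.34, 5.66 and 8.35 CPM (slope 0.03 ± 0.06, adjusted p = 0.941). The synthesis enzymes of the list did not pass; 10 genes of the list were lower at an unadjusted p under 0.05, and 5 without the 10 dpf library of experiment 1; insig1.S did not pass when any one of the 5 unfed libraries was left out.

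Of 66 tested extracellular matrix genes 3 fell after adjustment and 1, mmp9.2.L, rose. At an unadjusted p under 0.05, 27 were lower and 5 higher, and 35 were lower at all 3 steps (all genes, 12.7%). The fibrillar collagen col3a1.S fell from 584.2 to 327.1 CPM and from 611.6 over 345.7 to 178.3 CPM (slope -0.29 ± 0.05 log2 per day, adjusted p = 0.0385). The collagen-binding sparc.L fell from 291.7 to 171.2 CPM and from 198.6 over 129.9 to 61 CPM (slope -0.28 ± 0.04, adjusted p = 0.0385). The microfibril collagen col6a2.S fell from 223.6 to 162.9 CPM and from 221.8 over 138.2 to 70.7 CPM (slope -0.25 ± 0.04, adjusted p = 0.0403). For all 3 the library at 16 dpf was below every fed value. At 10 dpf both unfed libraries were above every fed value for col3a1.S and col6a2.S, and for sparc.L the one of experiment 1 was. Smooth muscle and mesenchyme genes had 12 of 53 lower and 1 higher at an unadjusted p under 0.05, with none passing. The number lower was 7 without the 10 dpf library of experiment 1 and 3 without the 16 dpf library. The 6 matrix genes lower at an unadjusted p under 0.05 without the 16 dpf library compare with 27 in full. Over all genes the number lower also went down without it, from 1345 to 918.

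Of 44 tested genes of epithelial defence and oxidant enzymes 14 were higher and 0 lower at an unadjusted p under 0.05, and none passed after adjustment. Between 10 and 13 dpf 23 of them were higher in both experiments (all genes, 29.8%). The complement factor cfb.L was at 154.8 and 278.6 CPM and then 276.2, 587.9 and 691.8 CPM, with 109.3 to 239.6 CPM in fed tadpoles (adjusted p = 0.144). The chemokine cxcl8.S was at 2.78 and 5.11 CPM in experiment 1 and at 51.8, 54.1 and 120.9 CPM in experiment 2, so the experiments differed more than the ages (adjusted p = 0.204). Of 54 leukocyte genes 1 rose after adjustment, mmp9.2.L, which is also counted with matrix and with thyroid hormone response; 16 were higher and 0 lower at an unadjusted p under 0.05. The antigen-presentation chain cd74.L was at 1.44 and 4.36 CPM and then 4.05, 13.4 and 20.3 CPM (adjusted p = 0.0515), and cyba.S, a subunit of the phagocyte oxidase, at 2.5 and 6.81 CPM and then 4.32, 17 and 17.2 CPM (adjusted p = 0.126). Leukocyte genes held 0.0454% and 0.0531% of the counts in experiment 1 and 0.0978%, 0.138% and 0.141% in experiment 2, against 0.0288% to 0.0381% in fed tadpoles; their part in the higher levels of defence genes was not tested. Without the 16 dpf library 9 defence and 10 leukocyte genes were higher at an unadjusted p under 0.05, and 0 lower.

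Of 134 genes of cytosolic ribosomal proteins and elongation factors 125 were higher at 13 than at 10 dpf in both experiments and 1 was lower in both (all genes, 29.8% and 28.5%). None passed the trend test or had an unadjusted p under 0.05. The median steps were 0.18 and 0.34 log2 between 10 and 13 dpf and 0.03 between 13 and 16 dpf, where 97 were higher and 37 lower. The same list in fed tadpoles had medians of -0.75 in experiment 1 and 0.40 in experiment 2 between 10 and 13 dpf, so fed libraries were not alike. These genes took 12.2% and 13.7% of the counts in experiment 1 and 13.5%, 17.1% and 17.9% in experiment 2. Of 109 ribosome biogenesis genes 14 were higher and 0 lower at an unadjusted p under 0.05, with a median slope of 0.059 log2 per day in unfed and -0.068 in fed tadpoles. The number higher was 3 without the 10 dpf library of experiment 1 and 4 without the 16 dpf library. The nucleolar helicase ddx21.L was at 607.9 and 1092 CPM and then 1004, 1613 and 1875 CPM (adjusted p = 0.312), above the fed range of 276 to 580.2 CPM in every unfed library. Oxidative phosphorylation had 12 of 117 genes lower and 1 higher at an unadjusted p under 0.05, with a median slope of -0.059 in unfed and -0.073 log2 per day in fed tadpoles; the number lower was 1 without the 10 dpf library of experiment 1 and 4 without the 16 dpf library.

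Lists tied to the fasted state in other vertebrates had no passing gene. None of 57 amino acid response genes passed, with 9 higher and 2 lower at an unadjusted p under 0.05; atf3.L, a stress-induced transcription factor, was at 2.4 and 3.51 CPM and then 9.31, 9.51 and 24.5 CPM. None of 46 genes of gluconeogenesis and the fasting response passed, with 8 higher and 3 lower. The glucocorticoid-responsive klf15.S was at 13.5 and 18 CPM and then 9.45, 10.5 and 22.5 CPM, all above the fed range of 2.43 to 6.17 CPM. Among 56 autophagy and FoxO target genes 5 were higher and 1 lower. A gene described as DNA damage-regulated autophagy modulator protein 1-like, named after its values were seen, did rise, from 0.288 to 1.28 CPM and from 2.56 over 8.26 to 21.1 CPM (slope 0.51 ± 0.07 log2 per day, adjusted p = 0.0319). Apoptosis, proteasome, lysosome and glycolysis lists had 5, 2, 6 and 6 genes higher and 0, 0, 2 and 2 lower at an unadjusted p under 0.05, and no gene passing. Without the 16 dpf library the number higher was 1 for amino acid response and lysosome and 0 for gluconeogenesis, autophagy and glycolysis. It was 2 for apoptosis and 1 for the proteasome. Over all genes the number higher also went down without that library, from 1008 to 635. Without the 10 dpf library of experiment 1 the number higher was 5 for gluconeogenesis, 0 for the lysosome and 1 for the proteasome. The number higher over all genes went down to 790 in that fit.

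**Figure D3:**
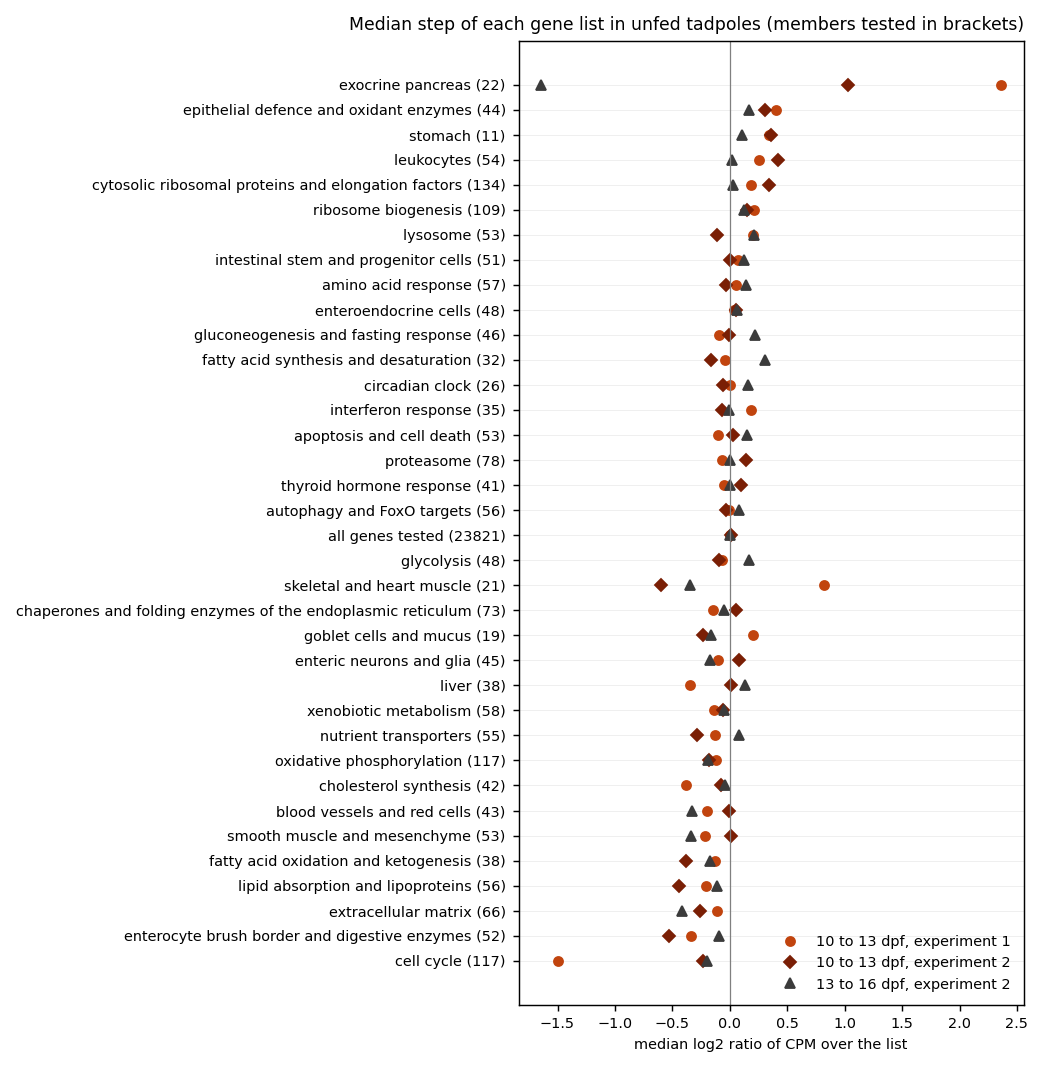
Median log2 ratio of CPM over the tested members of 35 gene lists and over all genes, for the 3 steps in unfed tadpoles, with the number of members in brackets. Brush border, lipid absorption and matrix lists lie left of 0 at all 3 steps and the defence list lies right of 0 at all 3; the exocrine pancreas list runs from 2.36 and 1.03 at the early step to -1.64 at the late one.

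The step from 10 to 13 dpf is held by both experiments. It changed by at least 2-fold in the same direction in both for 117 genes upward (0.522% of 22395 genes with a mean of 1 CPM or more) and 97 downward (0.433%). The test of this step passed for 7 genes, 6 higher and 1 lower (0.0294% in all, 0.0252% and 0.0042% by direction), with 2.69% of genes higher and 3.8% lower at an unadjusted p under 0.05. The complement protease c1s.L was the one rising gene with a symbol: it went from 0.672 to 2.98 CPM in experiment 1 and from 1.35 to 31.7 CPM in experiment 2 (log2 change 3.72 ± 0.48, adjusted p = 0.0275), and stood at 29.5 CPM at 16 dpf. A gene described as dual oxidase 1-like, named after its values were seen, belongs to the enzymes that release hydrogen peroxide at epithelial surfaces. It rose from 6.05 to 30.8 CPM and from 24.3 to 76.9 CPM, stayed at 82.2 CPM at 16 dpf, and had a log2 change of 1.98 ± 0.25 (adjusted p = 0.0275). A gene described as SCO-spondin-like and 3 uncharacterized ones, also named after their values were seen, made up the other rises; LOC108704225 was at 0 in both libraries of experiment 1, so its rise from 1.08 to 39 CPM was measured in experiment 2 alone. The single fall was the Niemann-Pick C1-like gene (log2 change -3.36 ± 0.35, adjusted p = 0.0202). Leaving out an unfed library at 10 or 13 dpf leaves as many unfed terms as unfed libraries. The disagreement between the experiments then no longer enters the spread, so the numbers passing in those fits are not read as results.

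Genes nearest to the threshold of this step included cell division genes on the falling side. The kinesin cenpe.L was at 27.8 and 6.28 CPM in experiment 1 and at 10.8 and 4.19 CPM in experiment 2 (log2 change -1.80 ± 0.27, adjusted p = 0.0638). The spindle checkpoint kinase ttk.S was at 9.22 and 1.92 CPM and then 4.72 and 1.58 CPM (-1.96 ± 0.34, adjusted p = 0.0922). The scaffold iqgap3.L was at 8.64 and 1.17 CPM and then 3.37 and 0.905 CPM (-2.48 ± 0.38, adjusted p = 0.0638). Liver-list genes went both ways at this step, with 5 of 38 higher and 9 lower at an unadjusted p under 0.05 and none passing. The complement gene c3.L was at 162.5 and 432.2 CPM and then 367.2 and 1489 CPM (log2 change 1.72 ± 0.39, adjusted p = 0.225; picked after its values were seen). By contrast itih2.L, which stabilizes hyaluronan, was at 56.4 and 6.7 CPM and then 8.91 and 1.7 CPM (adjusted p = 0.0638). The retinol carrier rbp4.L, which is not on the liver list, was at 48.9 and 17.2 CPM and then 22.8 and 9.05 CPM (adjusted p = 0.0798). On the rising side the elastase-like cela2al.L was at 0.576 and 4.79 CPM and then 3.51 and 16 CPM, but 7.17 CPM at 16 dpf (adjusted p = 0.0798). None of the genes in this paragraph passed.

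Cell cycle genes as a list differed between the experiments at this step. Of 117 tested, 84 were lower at 13 dpf in both experiments and 2 higher in both (all genes, 28.5% and 29.8%). Along the trend 43 were lower and 0 higher at an unadjusted p under 0.05, and none passed. The median step was -1.50 log2 in experiment 1, -0.23 in experiment 2, and -0.20 from 13 to 16 dpf. These genes held 0.133% of the counts at 10 dpf in experiment 1 and 0.05% to 0.079% in the other 4 unfed libraries, with 0.132% to 0.235% in fed tadpoles. A fit of the difference between the experiments was added after the data were seen. It has as many unfed terms as unfed libraries, so no unfed replication enters it and only sizes are given. The median difference of the list, experiment 2 minus experiment 1, was 1.28 log2, against -0.01 over all genes tested. Without the 10 dpf library of experiment 1, whose age the labels give in conflicting ways, 10 of the 117 were lower along the trend at an unadjusted p under 0.05, with a median slope of -0.098 log2 per day in place of -0.194. The number lower over all genes also went down without that library, from 1345 to 1017. The mitotic kinesin kif23.S was lower at 13 dpf in both experiments. It was at 5.09 and 1.17 CPM in experiment 1 and at 1.21, 0.34 and 0.295 CPM in experiment 2. Its experiment 2 values rest on 9, 3 and 3 counts.

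**Figure D4:**
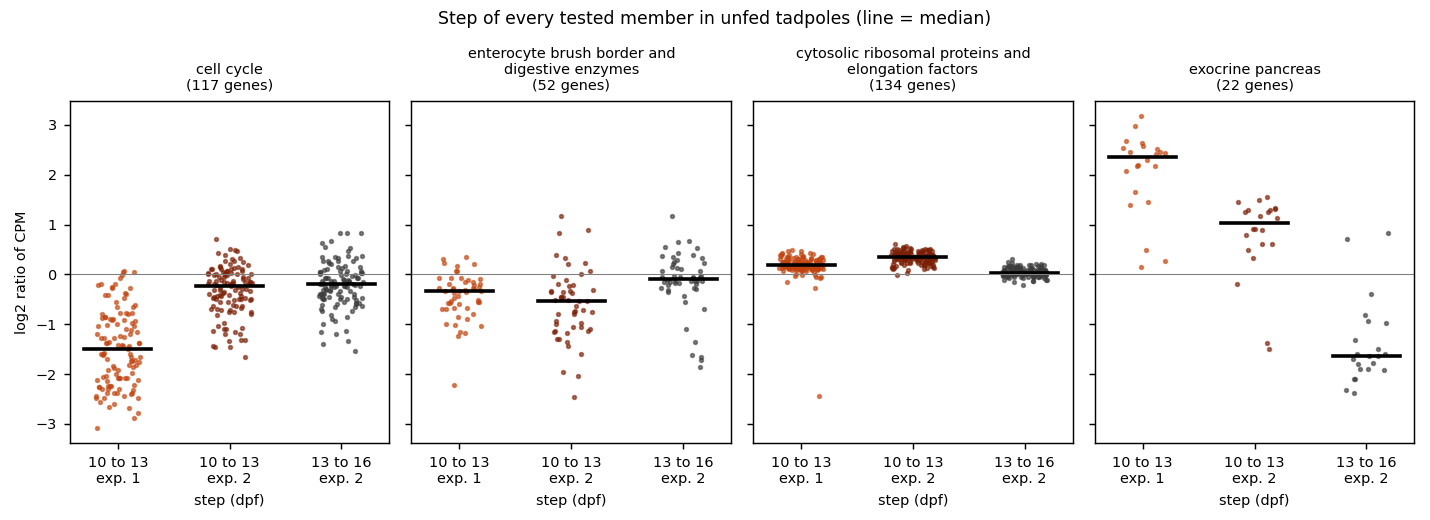
Log2 ratio of CPM of every tested member of 4 gene lists at the 3 steps in unfed tadpoles, with the median as a line. Cell cycle members lie lowest at the first step of experiment 1 (median -1.50), ribosomal ones lie in a narrow band above 0 between 10 and 13 dpf (medians 0.18 and 0.34), and pancreas members are high at 10 to 13 dpf and low at 13 to 16 dpf.

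The step from 13 to 16 dpf exists in experiment 2 alone and rests on 1 library at each age. It shares its 13 dpf library with the earlier step of that experiment. The log2 changes given with an SE are fitted, and experiment 1 enters them: the 13 dpf level of experiment 2 is fitted from the 10 and 13 dpf libraries of both experiments. Fitted and direct changes can differ, as for clca1.2.L (-0.41 fitted, 0.74 direct). By size, 328 genes were at least 2-fold higher at 16 dpf (1.46%) and 366 at least 2-fold lower (1.63%). In the fit across all libraries, where the lone 16 dpf library is assumed to vary like the other groups, 5 genes passed, all higher (0.021%); with edgeR none passed on the lower side, where 311 genes had an unadjusted p under 0.05 (1.31%, against 1.49% higher). DESeq2 also passed 5 genes over both directions. The transcription factor gene fosl1.L, a partner of Jun in the AP-1 complex, was at 0.576 and 0.426 CPM in experiment 1 and at 3.91, 1.25 and 28.3 CPM in experiment 2 (log2 change 4.28 ± 0.53, adjusted p = 0.0449). The aggrecanase adamts4.S was at 2.02 and 0.958 CPM and then 8.37, 3.74 and 29.1 CPM (2.94 ± 0.38, adjusted p = 0.0449). In experiment 2 both were lower at 13 than at 10 dpf and then stood high at 16 dpf. Experiment 1 has no 16 dpf library, and its lower values at 13 dpf rest on few counts (6 and 4 for fosl1.L, 21 and 9 for adamts4.S). The receptor gprc5a.L (3.27 ± 0.43) and prodh.L (2.55 ± 0.33) passed with the same adjusted p, and a gene described as fibroblast growth factor 1-like, named after its values were seen, went from 3.96 to 38.6 CPM (3.44 ± 0.43, adjusted p = 0.0484). The other copy, adamts4.L, was at 4.41 and 26.9 CPM at 13 and 16 dpf (adjusted p = 0.114). Fits that leave out one of the other unfed libraries have as many unfed terms as unfed libraries, and their counts are not read as results.

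On the falling side of the late step no gene passed. The lipoprotein regulator apoa5.S was at 87.9 and 59.1 CPM in experiment 1 and at 34.8, 27.3 and 6.09 CPM in experiment 2 (log2 change -2.10 ± 0.38, adjusted p = 0.246). Carbonic anhydrase ca1.L was at 176.2 and 207.9 CPM and then 385.9, 142.6 and 29 CPM (adjusted p = 0.374). The fibrillar collagen col1a2.S was at 34.3 and 26.9 CPM and then 24.6, 19.5 and 7.86 CPM (adjusted p = 0.702). For these 3 genes the 16 dpf library was the lowest of the 5 and lay below the fed range. The genes lower by at least 2-fold at this step (1.63% of all genes) included 16 of 22 tested exocrine pancreas genes and 9 of 56 of lipid absorption. They also included 8 of 43 of blood vessels and red cells, 7 of 117 of the cell cycle, 6 of 52 of the brush border and 5 of 66 of the matrix. Genes higher by at least 2-fold (1.46% of all genes) included 9 of 44 of epithelial defence, 6 of 57 of the amino acid response and 6 of 48 of glycolysis. They also included 5 of 46 of gluconeogenesis and the fasting response and 5 of 41 of the thyroid hormone response. In that order 1, 1, 0, 0 and 1 genes of these lists were lower by as much. The lists overlap, and these counts are not tests.

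The genes with a shared early step were followed to 16 dpf. They were chosen in part by the 13 dpf library of experiment 2, which the late step subtracts, so a return after a high or low 13 dpf value is partly built in and the counts are a description. Of the 117 genes at least 2-fold higher at 13 dpf in both experiments 9 went up by another 2-fold or more by 16 dpf (all genes, 1.46%), 50 stayed within 0.5 log2, and 38 went back by 2-fold or more (all genes, 1.63% lower). Of the 97 genes lower in both 14 went on by 2-fold or more (all genes, 1.63%), 55 stayed within 0.5 log2 and 6 went back by 2-fold or more (all genes, 1.46%). No share over all genes stands beside the counts within 0.5 log2, so they are not read as a lasting early step. The 117 included 11 of the 22 tested exocrine pancreas genes (all genes, 0.522%), and 10 of these were among the 38. The 97 included 12 of the 117 tested cell cycle genes (all genes, 0.433%).

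Exocrine pancreas genes, which make digestive enzymes in a gland that lies against the larval gut, had large steps at both ages. Of 22 tested 19 were higher at 13 dpf in both experiments (all genes, 29.8%), with median steps of 2.36 and 1.03 log2. The median from 13 to 16 dpf was -1.64. Carboxypeptidase A1 (cpa1.L) was at 35.3 and 281.2 CPM in experiment 1 and at 172.2, 475.3 and 128.2 CPM in experiment 2. Chymotrypsin C (ctrc.L) was at 51.6 and 294.6 CPM and then 196.3, 556.7 and 172.9 CPM; both genes were picked from the list after their values were seen. In fed tadpoles the same genes went in opposite directions between 10 and 13 dpf, with medians of -2.14 in experiment 1 and 1.46 in experiment 2. The amount of pancreas dissected with each pool is not recorded in the labels, and its part in these values was not tested. The trend test called none of the 22, but a straight slope cannot detect a rise followed by a fall. In the test of the early step 2 of the 22 were higher and 0 lower at an unadjusted p under 0.05. None passed that test after adjustment (smallest adjusted p = 0.3). On the falling side of the late step no gene passed, which includes these.

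**Figure D5:**
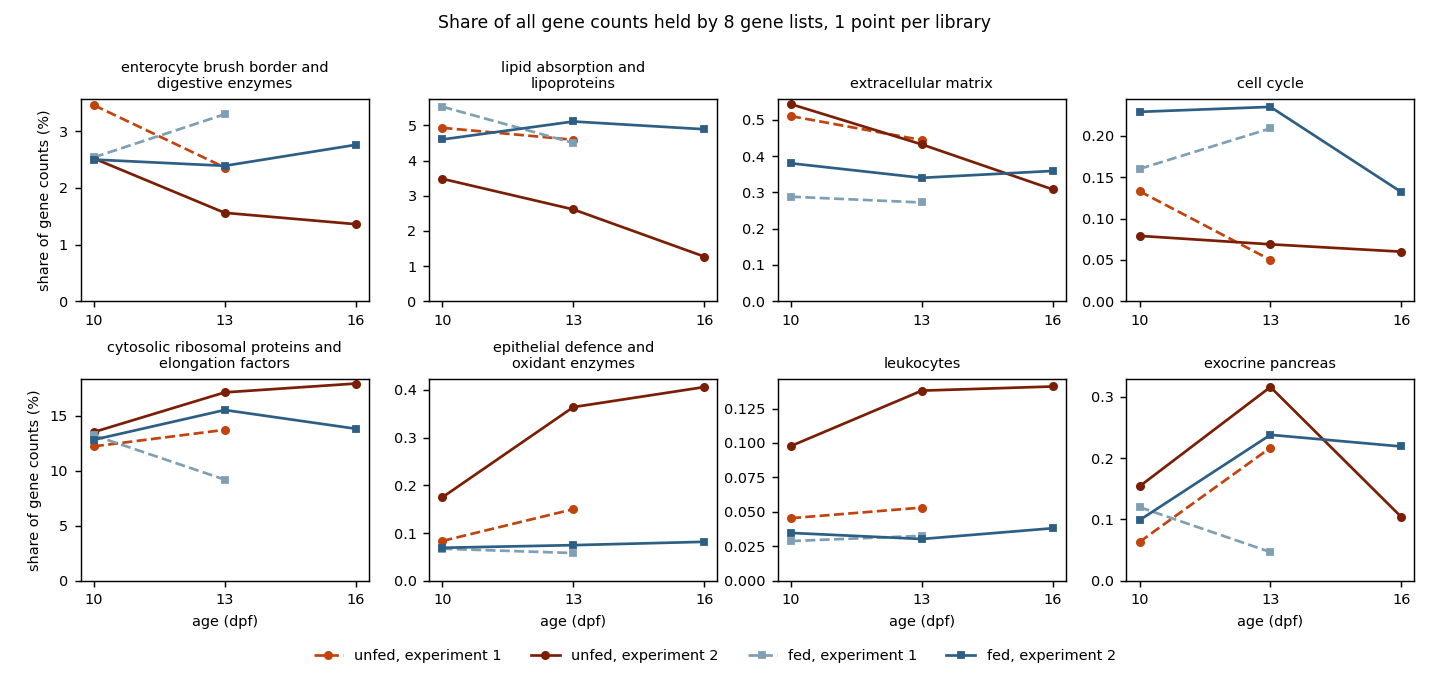
Share of all gene counts (%) held by 8 gene lists against age in dpf, 1 point per library, with axes from 0. The brush border share in experiment 2 goes from 2.52% over 1.56% to 1.36%, the defence share goes from 0.175% over 0.364% to 0.406%, and the pancreas share of 0.154%, 0.316% and 0.104% peaks at 13 dpf.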

How the data were processed

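Reads had been aligned with HISAT2 and counted with featureCounts, per the submitters' processing notes; for versions, strand setting, genome build and handling of reads with several matches nothing was found in these sources. Deposited values are raw counts per transcript (10 columns) beside transcript lengths; the deposited RPKM columns were not used. Variants of a gene repeat its counts, so each gene took the transcript with the highest total. Accessions were named through a RefSeq gene table (assembly Xenopus_laevis_v10.1, names only), giving 33767 genes, of which 26905 were in the table and held 92.9% of gene counts; the homeolog ending of a symbol and that in the deposited description differ for some genes. Rows with a blank name (0.0738% of counts) or without accession (0.136%) were left out. Deposited totals were 12664503 to 17967762 counts per library; gene totals give the precision.

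In R 4.3.3, edgeR 4.0.16 removed low counts with filterByExpr, scaled libraries by TMM, and tested genes by the quasi-likelihood F test with Benjamini-Hochberg adjustment over 23821 genes. The trend fit had feeding, experiment within feeding, and age within feeding as terms; the unfed slope comes from the 5 unfed libraries and the fed ones share in the spread. The step fit had the 6 groups of feeding and age and the same block. Experiment was a block because the labels divide the series by experiment; unfed differences between experiments at 10 and 13 dpf correlated across genes (r = 0.528, genes not independent). Fold counts used log2 CPM ratios with a prior count of 2. Named genes were the 12 highest and 12 lowest slopes among passing genes with a symbol, a mean of 2 CPM or more and the sign of the slope in both experiments, up to 8 per direction and step (filled to 6), and 4 per list by smallest trend p. Members, the 35 lists and rules were chosen with earlier results of these data known. Simulated counts with no difference between the experiments were used to check the median estimates of the trend and early-step tests. They do not cover data where the experiments differ, and the late-step test was not checked in this way. Alternatives included DESeq2 1.42.0, other scaling, filters, blocks and ages, and leaving out libraries. The values of 1 gene that the naming rule selects are not reported here.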

Additional observations from a re-analysis of the deposited data

Results flagged for a closer look

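The slope with age differed between unfed and fed tadpoles for 2 genes in the test of that difference. The gene described as Niemann-Pick C1-like protein 1 had a difference of -1.17 log2 per day and LOC108709869, described as a galactosyltransferase, one of -0.64.

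The step from 10 to 13 dpf in unfed tadpoles was compared between the experiments in a fit added after the data were seen. That fit has as many unfed terms as unfed libraries, so its spread comes from the fed libraries alone. No unfed replication enters it, and only the sizes of the differences are given. The genes below were picked by that fit, and all had a lower change in experiment 2. The muscle creatine kinase gene ckm.L was at 1.44 and 16.4 CPM in experiment 1 and at 2.7 and 1.02 CPM in experiment 2. Its fitted difference was -4.89 log2. Skeletal and heart muscle genes as a list had median steps of 0.82 and -0.60 in experiments 1 and 2. The goblet cell channel regulator clca1.2.L was at 17.4 and 270.6 CPM and then 197.9 and 240.5 CPM, a difference of -3.68. An aquaporin-10-like gene was at 28.7 and 57.4 CPM and then 63.3 and 14.1 CPM, a difference of -3.16. A gene described as U1b small nuclear RNA was at 0.576 and 5.85 CPM and then 4.72 and 2.83 CPM, a difference of -4.05. An uncharacterized gene had 0 counts at 10 dpf in experiment 1 and 7.55 CPM at 13 dpf, and 30.6 and 54.3 CPM in experiment 2. Its fitted difference of -8.18 rests on that 0 and depends on the prior count.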

How the results depend on the processing

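Counts of passing genes depended strongly on the fit. The unfed trend passed for 269 genes with DESeq2, 177 with no filter on low counts, 286 with unfed libraries only, 128 with all transcript rows, 2 with the sum over transcripts and 3 with no replicate block, and for 0 to 38 genes when one unfed library was left out. The step from 10 to 13 dpf passed for 21 genes with DESeq2, 74 with no filter, 63 with unfed libraries only, 3 with a common experiment term, 3 with the age of the stage field, 0 with no replicate block, 0 with the sum over transcripts, and 6 to 147 without one library. The step from 13 to 16 dpf passed for 15 with no filter, 9 with unfed libraries only, 1 with a common term, 0 with no replicate block, with the sum over transcripts, with all transcript rows or with the stage field, and 29 to 42 without one library; without the 16 dpf library it has no value. The difference from fed slopes passed for 166 with DESeq2, 29 with no filter, 1 with the sum, and 0 to 12 without one library. Genes past the early and late fold were 969 and 2711 at 1.5-fold, and 129 and 301 at a mean of 5 CPM. Without an unfed library at 10 or 13 dpf, the step fits have as many unfed terms as unfed libraries. No unfed replication then enters their spread. The late-step counts of 29 to 42 all come from such fits. So do the early-step counts up to 147, except the 6 without the 16 dpf library. The counts from such fits are listed for completeness and are not read as a range of robustness. The causes of the differences between the counts given here were not tested.

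Signs of slopes reversed for 6 genes, none of which passes the trend test. When one unfed library was left out, slopes in log2 per day ran from -0.15 to 0.2 for zg16.L and from -0.01 to 0.18 for clca3p.S, reversed without the 10 dpf library of experiment 2. They ran from -0.02 to 0.2 for gadd45g.S, -0.05 to 0.32 for bhlhe40.S, -0.03 to 0.56 for gal.1.L and -0.01 to 0.37 for cxcl8.L, reversed without the 16 dpf library. The early step of LOC108704225, which passes that step's test, lost its direction: it ran from 0 to 5.16, with 0 when the 10 or the 13 dpf library of experiment 2 was left out. In the unfed libraries 3 counts correspond to 0.288 to 0.405 CPM, depending on the library, so values up to 0.288 CPM rest on 3 counts or fewer.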
